A study of Mus musculus with 36 samples.

Results

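The genes of a short heat shock list were followed through cultures of mouse embryonic stem cells (mESCs) that had or had not been lit with blue light. They were taken by symbol as targets of heat shock factor 1 (HSF1) together with the gene of HSF1 itself, and are 10 of the 54842 genes in the count table: Hspa1a, Hspa1b, Hsph1, Dnajb1, Hspa8, Hsp90aa1, Hsp90ab1, Hspd1, Hspe1 and Hsf1. All 10 were among the 18193 genes with enough counts to be tested. The list carried the working name of cytosolic chaperones, which is not right for 3 of its members, since Hspd1 and Hspe1 encode the mitochondrial chaperonin and Hsf1 encodes the transcription factor itself.

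The 36 libraries formed 12 groups of 3: LiTEC transfected or WT cells, lit for 30 min or kept without blue light, with RNA taken 0, 1 or 4 h later. All cultures, WT included, received doxycycline (2 µg/ml for 2 days) and grew without serum in 2i medium with LIF, which holds mESCs in a naive state. LiTEC is the light-responsive construct of a study of endogenous condensates, and the labels do not say whether the transfected line was a single clone. Nor do they give the origin of the replicates: if these were drawn from 1 culture, the p-values reflect technical spread only. The sample titles put replicate 1 of every group in batch 1 and replicates 2 and 3 in batch 2.

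HSF1 is held inactive in unstressed cells by chaperones. When proteins unfold it forms trimers, binds repeats of the short unit nGAAn in promoters, and raises transcription of chaperone genes within minutes. Inducible Hsp70 (Hspa1a and Hspa1b) is the classic target and is nearly silent without stress, whereas Hspa8, the constitutive Hsp70, and Hsp90 are abundant in every cell. Hsp40 proteins such as Dnajb1 deliver clients to Hsp70 and stimulate its ATPase, and Hsph1 (Hsp110) exchanges its nucleotide. The response is transient, because newly made chaperones hold HSF1 inactive again.

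Library totals ran from 11132970 to 21842256 counts, and the 10 genes together took 0.726% to 1.02% of a library. All 10 markers of naive mESCs had a median above 1 CPM (counts scaled to a library of 1e+06), and their summed level was 3171 to 4696 CPM. A median above 1 CPM was also reached by 3 of 8 fibroblast or feeder markers, 2 of 4 primitive endoderm markers and 3 of 3 neural markers. The summed level of 8 fibroblast or feeder markers was 3.86 to 12.2 CPM, that of 4 primitive endoderm markers 2.67 to 8.53 CPM and that of 3 neural markers 40.8 to 91.1 CPM, with the lit and dark ranges of each list overlapping. Replicate 3 of dark WT cells at 4 h stood apart, with 26.1% of its counts on the ribosomal RNA locus Gm26917 against 9.87% in the median library. Lit LiTEC replicate 1 at 0 h was next, at 16.3%, and lit LiTEC replicate 2 at 0 h had the smallest total. Most of the members' differences that rest on dark WT replicate 3 at 4 h, below called the library rich in Gm26917, are also given without it.

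Without light the members differed widely in level. Per kilobase of exon, dark WT cells at 0 h held 1017 ± 18.8 RPKM of Hsp90ab1 and 784 ± 39.5 RPKM of Hsp90aa1, the 2 cytosolic Hsp90 genes (SD, n = 3). Hspa8 stood at 465 ± 23.0 RPKM, Hspd1 at 365 ± 11.8 RPKM and Hspe1 at 156 ± 13.5 RPKM. The cochaperone genes were lower, at 27.2 ± 2.60 RPKM for Hsph1 and 17.6 ± 1.39 RPKM for Dnajb1, and Hsf1 was at 7.15 ± 0.361 RPKM. Inducible Hsp70 came last, with 2.76 ± 0.336 RPKM of Hspa1b and 0.275 ± 0.0782 RPKM of Hspa1a. No neighbours in this order overlapped over the 3 libraries. After light, in lit WT cells at 0 h, Hspa1b reached 40.6 ± 15 RPKM, a range that overlapped those of Hsph1 (46.8 ± 5.93 RPKM) and Dnajb1 (29.4 ± 5.55 RPKM).

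Inducible Hsp70 mRNA rose in lit cells of both genotypes at 0 and 1 h. In WT cells at 0 h, Hspa1a stood at 69.7, 28.3 and 50.5 CPM in lit replicates 1, 2 and 3, and at 0.863, 1.02 and 0.562 CPM in the dark ones. Every lit library was thus above every dark one. The log2 fold change of Hspa1a was 5.85 ± 0.48 (SE; edgeR adjusted p = 2.97e-10), a 57.6-fold rise from dark libraries with only 9 to 22 Hspa1a counts each. Hspa1b, which encodes a nearly identical protein, stood at 158, 74.2 and 109 CPM in the lit WT libraries and 8.80, 6.99 and 7.43 CPM in the dark ones. These groups did not overlap either, and the log2 fold change was 3.85 ± 0.39 (adjusted p = 5.12e-08), a 14.5-fold rise. In bulk RNA, a rise in every cell and a stronger rise in some of the cells cannot be told apart.

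**Figure D1:**
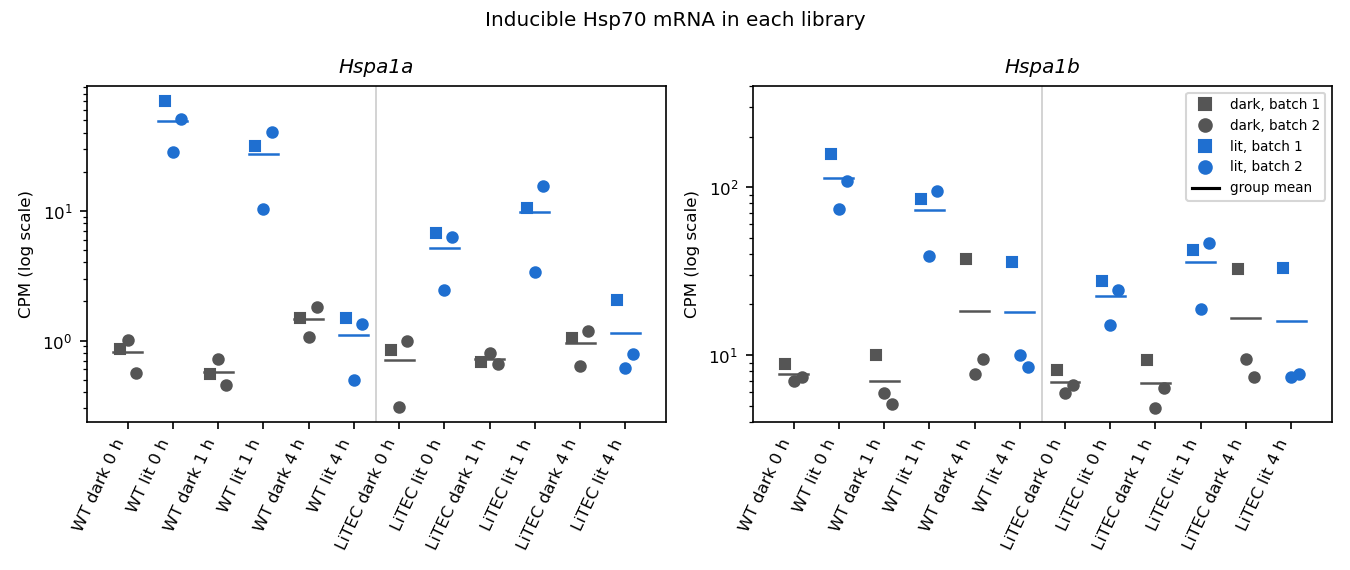
CPM of Hspa1a and Hspa1b in each of the 36 libraries, on log axes, with squares for batch 1, circles for batch 2 and a bar at each group's mean. Lit libraries at 0 and 1 h lie above their dark partners in both genotypes, while at 4 h lit and dark libraries overlap and Hspa1b is high in batch 1 of all 4 groups.

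At 1 h the rise was still present in WT. Lit WT libraries held 31.4, 10.2 and 40.3 CPM of Hspa1a and 85.4, 39.0 and 94.9 CPM of Hspa1b. Dark WT libraries at 1 h held at most 0.716 CPM of Hspa1a and 10.1 CPM of Hspa1b, so lit and dark did not overlap. The log2 fold changes were 5.55 ± 0.52 for Hspa1a (adjusted p = 3.95e-08) and 3.46 ± 0.40 for Hspa1b (adjusted p = 1.64e-06). Within batches the Hspa1a difference in WT, here taken on log2(batch mean CPM + 0.5), was 5.69 in batch 1 and 4.95 in batch 2 at 0 h, and 4.93 and 4.57 at 1 h.

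LiTEC cells responded too. At 0 h lit LiTEC libraries held 6.71, 2.44 and 6.30 CPM of Hspa1a against 0.839, 0.310 and 0.991 CPM in the dark, a log2 fold change of 2.89 ± 0.60 (adjusted p = 0.0123). Hspa1b stood at 27.4, 15.2 and 24.4 CPM against 8.14, 5.95 and 6.67 CPM, a log2 fold change of 1.72 ± 0.43 (adjusted p = 0.0406). Neither pair of groups overlapped. These 2 calls were close to the threshold: that of Hspa1a was lost without lit replicate 1 or 3 or without dark replicate 1 or 2, and that of Hspa1b was lost when any 1 of the 6 libraries was left out.

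At 1 h the values in LiTEC cells were firmer. Lit libraries held 10.4, 3.38 and 15.4 CPM of Hspa1a and 42.3, 18.8 and 46.6 CPM of Hspa1b, and dark ones held at most 0.795 and 9.37 CPM. The log2 fold changes were 3.73 ± 0.54 for Hspa1a (adjusted p = 0.000199) and 2.46 ± 0.41 for Hspa1b (adjusted p = 0.00156). The call of Hspa1b was lost without lit replicate 3 and in a fit with no batch term (adjusted p = 0.414 for the latter). Both calls were otherwise kept when 1 library was left out. In batch 2 alone, with 2 libraries a group, neither call of Hspa1a in LiTEC cells was kept (adjusted p = 0.439 at 0 h and 0.248 at 1 h). In both genotypes replicate 2 was the lowest of the lit libraries at 0 and 1 h for both genes.

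By 4 h the light effect on inducible Hsp70 was no longer detectable. Hspa1a stood at 1.49, 0.497 and 1.33 CPM in lit WT cells and at 1.48, 1.07 and 1.81 CPM in dark ones, with a log2 fold change of −0.36 ± 0.67 and a 95% interval from −1.71 to 1.00. In LiTEC cells it was 0.27 ± 0.72 (interval −1.20 to 1.73). For Hspa1b the log2 fold changes at 4 h were 0.00 ± 0.38 in WT (interval −0.77 to 0.78) and −0.08 ± 0.39 in LiTEC cells (interval −0.87 to 0.71). Without dark WT replicate 3, the library rich in Gm26917, the WT values at 4 h were −0.11 for Hspa1a and −0.12 for Hspa1b. The decline of the light effect in WT from 0 to 4 h passed its own test, by −6.21 ± 0.87 for Hspa1a and −3.85 ± 0.54 for Hspa1b (adjusted p = 0.000116 for each), in a comparison that called 4 of 10 members and 0.726% of tested genes. Without the library rich in Gm26917 they were −5.96 and −3.98, both called. In batch 2 alone the call of Hspa1a was lost (−6.16, adjusted p = 0.102). In LiTEC cells the same differences were −2.62 ± 0.99 (adjusted p = 0.634) and −1.80 ± 0.58 (adjusted p = 0.489), and no member was called (0.033% of tested genes). From 0 to 1 h the change of the light effect was called for no member in WT (0.517% of tested genes) or LiTEC cells (0.011%).

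Hspa1a and Hspa1b sit side by side on the minus strand of chromosome 17, each as a single exon, at chr17:34969190-34972156 and chr17:34956436-34959238 (GRCm38, GENCODE M21). Of the windows of 100 bases along the Hspa1a transcript, 47.1% occur unchanged in Hspa1b, and 49.9% of those of Hspa1b occur in Hspa1a. How reads that match both were counted is not given in the sources used here, so the split of counts between them is uncertain. Gm20481, on the opposite strand of Hspa1a, had 20 counts in all 36 libraries together. With the counts of both genes added as if 1 gene, an alternative chosen after seeing the data, the log2 fold change was 4.23 ± 0.40 in WT at 0 h and 3.8 ± 0.41 at 1 h. In LiTEC cells it was 1.87 ± 0.43 at 0 h (adjusted p = 0.0229) and 2.66 ± 0.41 at 1 h.

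Despite the shared sequence the 2 genes did not move in a fixed ratio. Hspa1b had 2.16 to 3.8 counts for each Hspa1a count in the lit WT libraries at 0 and 1 h, and 3.02 to 6.22 in the lit LiTEC libraries at those times. In all the other libraries, dark or at 4 h, the ratio was 5.24 to 31.3. The 3 highest ratios, 24.1, 25.2 and 31.3, came from batch 1 at 4 h, and the other batch 1 library of that time, lit LiTEC, was at 16.0. Hspa1b was high in these 4 libraries with and without light. It stood there at 37.4 CPM in dark WT, 36 in lit WT, 32.7 in dark LiTEC and 32.9 in lit LiTEC cells, while replicates 2 and 3 of those 4 groups held 7.37 to 10.01 CPM. Hspa1a in the same 4 batch 1 libraries was at 1.05 to 2.05 CPM.

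**Figure D2:**
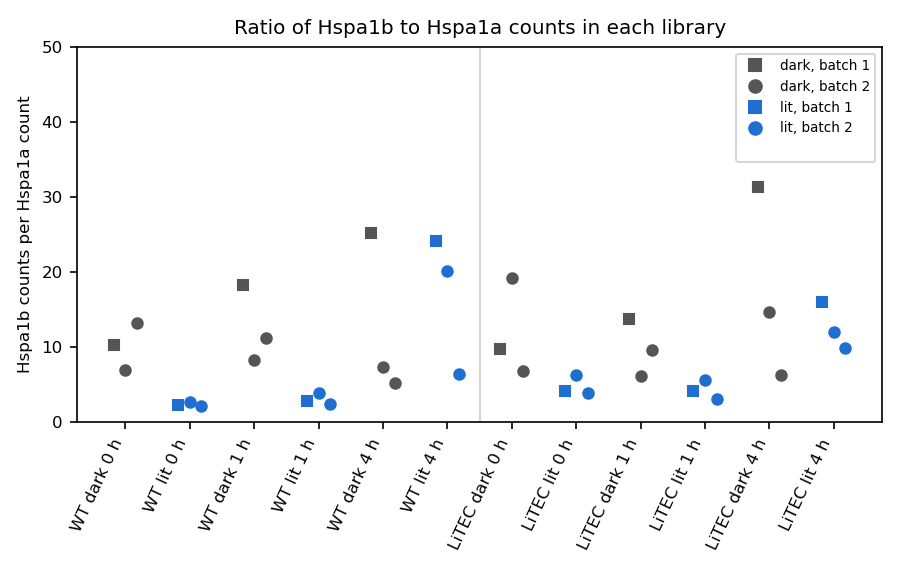
Counts of Hspa1b for each count of Hspa1a in each library, squares for batch 1 and circles for batch 2, on a linear axis from 0. Lit libraries at 0 and 1 h lie between 2.16 and 6.22, and batch 1 at 4 h reaches 31.3.

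The rise of Hspa1b in the dark from 0 to 4 h was 1.05 ± 0.42 in WT (adjusted p = 0.109) and 1.12 ± 0.44 in LiTEC cells (adjusted p = 0.192), and was not called. This depended on the fit. With a replicate block in place of batch the WT rise was called (1.08, adjusted p = 0.0385), and with no filter on low counts both were (1.05 in WT and 1.13 in LiTEC cells). Without the library rich in Gm26917 the WT value was 1.195 (adjusted p = 0.137). On log2(batch mean CPM + 0.5) it came to 2.03 in batch 1 and 0.24 in batch 2 of WT, and to 1.94 and 0.39 in LiTEC cells. Batch and replicate 1 cannot be told apart here, since batch 1 holds a single library of each group.

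The bases just upstream of both Hsp70 genes are nearly the same. They are shown because both genes rose together. Each line gives the 250 bases before the start site, 5′ to 3′ on the minus strand, from RefSeq (GRCm38.p6), at chr17:34972157-34972406 for Hspa1a and chr17:34959239-34959488 for Hspa1b, with capitals marking a pair of inverted HSF1 units, GAANNTTC.
Hspa1a: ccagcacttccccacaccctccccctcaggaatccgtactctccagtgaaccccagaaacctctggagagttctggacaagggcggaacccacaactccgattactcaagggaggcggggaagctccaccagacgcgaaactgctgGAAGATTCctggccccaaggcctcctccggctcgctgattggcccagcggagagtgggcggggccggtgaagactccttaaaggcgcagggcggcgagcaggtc
Hspa1b: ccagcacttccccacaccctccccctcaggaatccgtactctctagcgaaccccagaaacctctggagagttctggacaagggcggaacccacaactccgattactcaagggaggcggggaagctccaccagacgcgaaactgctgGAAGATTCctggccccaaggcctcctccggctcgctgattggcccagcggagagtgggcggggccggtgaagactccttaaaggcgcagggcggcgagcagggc
Of the 250 positions, 247 are identical. The match in capitals lies at −104 to −97 of the start site (start site counted as 0) in both. Only exact units are in capitals, and units with a changed base are left in lower case.

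Both strands were searched for runs of 3 units (GAANNTTCNNGAA or TTCNNGAANNTTC) and of 2 units (GAANNTTC or TTCNNGAA) in windows of 300 bases, from 250 before each start site. The 3-unit forms contain the 2-unit forms. Only exact matches were sought, so a window without a run may still hold units with a changed base. Of 32851 RefSeq windows of that length, 0.603% held a 3-unit run and 15.1% a 2-unit run. Entries were found for 6 members, with 9 windows among them. A member is counted if any of its windows held a run, whereas the shares above are per window. The set of windows used here held none for Hspa8, Hsp90aa1, Hsp90ab1 and Hsf1, so these were not searched. A 2-unit run was present for 5 of the 6, and a 3-unit run for Hspd1, Hspe1 and Hsph1. Dnajb1 had neither. The 3-unit runs of these genes are shown with capitals on the matched bases, at chr1:55088053-55088082 (plus strand) for Hspe1 and chr5:149636282-149636306 (minus strand) for Hsph1.
Hspe1: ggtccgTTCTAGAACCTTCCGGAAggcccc
Hsph1: tgcagaTTCTGGAAAGTTCtcctca
The Hsph1 run lies after the start sites used, at 15 to 27 of one and 36 to 48 of the other. Hspd1 and Hspe1 are transcribed away from each other, and the run shown for Hspe1 is the same stretch of DNA, read on the other strand, that was found for Hspd1. It lies at −89 to −72 of the Hspe1 start site. For Hspd1 it lies at −144 to −127 of the start site at chr1:55087932. The window of the other Hspd1 start site, chr1:55088243, held no run of either form. Of the genes that share the run, neither was called after light (below 0.10 on the log2 scale in both genotypes at 0 h), and Hsph1 was called in WT at 0 h.

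The Hsp40 gene Dnajb1 (chr8:83608193-83612653) rose alongside Hsp70 at 0 and 1 h, by a smaller factor but with less spread. It stood at 109, 74.7 and 98.5 CPM in lit WT libraries at 0 h and at 52.2, 56.3 and 61.1 CPM in dark ones. The lit and dark libraries did not overlap, and the log2 fold change was 0.73 ± 0.09 (adjusted p = 3.58e-06). In LiTEC cells at 0 h, Dnajb1 stood at 97.0, 87.2 and 94.1 CPM against 68.0, 52.9 and 59.6 CPM, a log2 fold change of 0.63 ± 0.09 (adjusted p = 0.000434). At 1 h the log2 fold changes of Dnajb1 were 0.76 ± 0.09 in WT (adjusted p = 3.72e-06) and 0.63 ± 0.09 in LiTEC cells (adjusted p = 0.000199), again without overlap. All 4 calls held when any 1 library was left out, and those in LiTEC cells were lost in batch 2 alone (adjusted p = 0.0557 at 0 h and 0.119 at 1 h). At 4 h it was 0.12 ± 0.09 in WT (0.09 without the library rich in Gm26917) and 0.08 ± 0.09 in LiTEC cells, neither called, and the WT effect had fallen by 0.61 ± 0.13 from 0 h (adjusted p = 0.0185). Without that library the change from 0 h was −0.63 (adjusted p = 0.0165).

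Hsph1 (chr5:149614287-149636376) was called at 0 h in WT and with both genotypes averaged (0.63, adjusted p = 1.17e-05). In WT at 0 h it stood at 371, 291 and 359 CPM in lit libraries and 190, 183 and 219 CPM in dark ones, a log2 fold change of 0.78 ± 0.12 (adjusted p = 0.000134) without overlap. That call was lost in batch 2 alone (0.68, adjusted p = 0.0917). In LiTEC cells the values were 308, 245 and 287 CPM against 206, 185 and 215 CPM. These groups did not overlap either, yet the log2 fold change of 0.47 ± 0.12 was not called (adjusted p = 0.0576). It was called without lit replicate 2 (0.55, adjusted p = 0.0466), with the 0 h LiTEC groups fitted alone (adjusted p = 0.012) and with no filter on low counts. With a replicate block in place of batch it was called too (0.47, adjusted p = 4.63e-05). At 1 h Hsph1 was no longer called in WT (0.24 ± 0.12, adjusted p = 0.746) or in LiTEC cells (0.22 ± 0.12, adjusted p = 0.877). The fall of its WT effect was called from 0 to 4 h (−0.72 ± 0.17, adjusted p = 0.0413) and not from 0 to 1 h (−0.55 ± 0.17, adjusted p = 0.20). Both this 4 h call and that of Dnajb1 were lost when 1 of 3 WT libraries at 0 h was left out, namely dark replicate 1 or either of lit replicates 1 and 3, each of which left 2 of the 4 calls. The call of Hsph1 was also lost without dark replicate 2 or 3 at 0 h, lit replicate 1 or 2 at 4 h, or dark replicate 3 at 4 h (−0.57, adjusted p = 0.135 for the last).

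**Figure D3:**
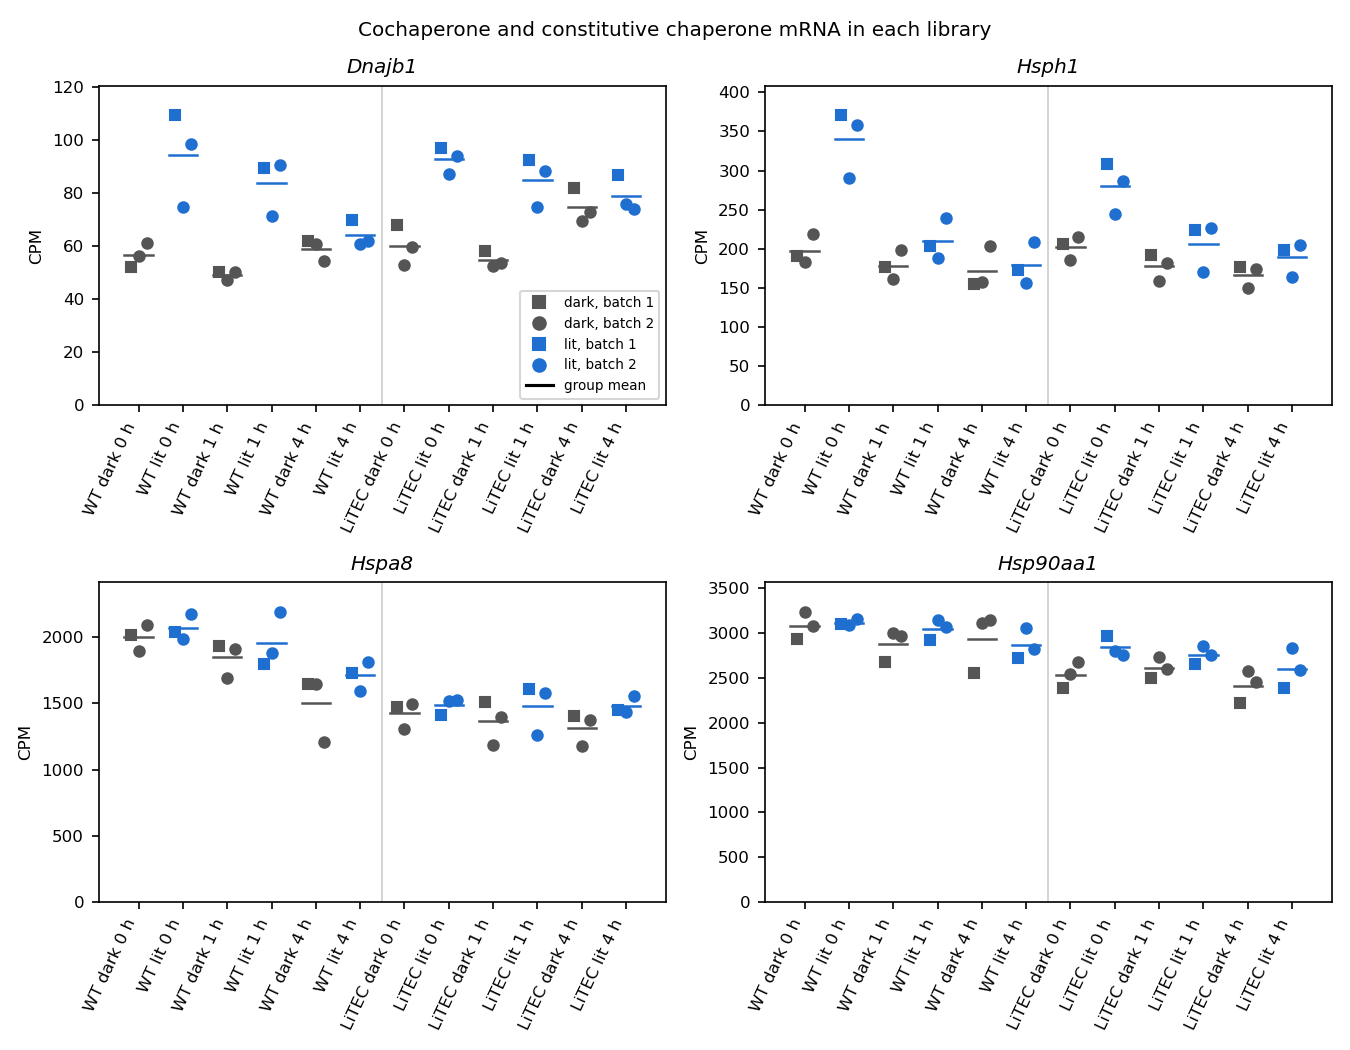
CPM in each library, on linear axes from 0, for the cochaperone genes Dnajb1 and Hsph1 and for the constitutive chaperone genes Hspa8 and Hsp90aa1 (squares for batch 1, circles for batch 2, bars for group means). Dnajb1 is above its dark partners in all lit libraries at 0 and 1 h, Hsph1 at 0 h, and Hspa8 lies lower in LiTEC than in WT libraries of the same time and light, apart from 1 dark WT library at 4 h, at 1211 CPM.

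The remaining members gave no call after light with all libraries fitted. Averaged over both genotypes at 0 h, the log2 fold change was 0.05 for Hspa8 (95% interval −0.09 to 0.19), 0.09 for Hsp90aa1 (0.02 to 0.17) and 0.04 for Hsp90ab1 (−0.02 to 0.10). It was 0.07 for Hspd1 (0.00 to 0.15), 0.08 for Hspe1 (−0.01 to 0.17) and 0.16 for Hsf1 (0.04 to 0.28, adjusted p = 0.124), which was called without lit WT replicate 2 (0.20, adjusted p = 0.0474). A rise of these 6 genes as large as that of Dnajb1 (0.68 ± 0.07 in the same comparison) lies outside every one of the intervals. At 4 h the widest departure of these 6 genes, again averaged over both genotypes, was that of Hspa8, at 0.18 ± 0.07 (interval 0.04 to 0.32, adjusted p = 0.305). It was 0.12 without the library rich in Gm26917 (adjusted p = 0.568), and was called with no filter on low counts (0.18, adjusted p = 0.000258). In lit LiTEC cells at 0 h, Hsp90aa1 (2972, 2805 and 2759 CPM) and Hsf1 (49.8, 48.9 and 47.5 CPM) lay above all 3 dark libraries, which reached 2675 and 46.7 CPM, without being called (adjusted p = 0.152 and 0.375).

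In all, 4 of 10 members were called in WT at 0 h, all higher, where 2.86% of all tested genes were called and 1.66% were higher. At 1 h 3 were called in WT, all higher, beside 0.286% of tested genes (0.176% higher). In LiTEC cells 3 were called higher at 0 h (0.934% of tested genes called, 0.401% higher) and 3 at 1 h (0.115% called, 0.0824% higher). At 4 h no member was called in WT, where 0% of genes were, or in LiTEC cells, where 0.011% were. At an unadjusted p below 0.05 the 4 h tests gave 1484 genes in WT and 1155 in LiTEC cells. With both genotypes averaged, 4 were called higher at 0 h (5.37% of tested genes called, 2.76% higher), 3 at 1 h (1.14% called, 0.676% higher) and none at 4 h (0.275%). The median log2 fold change of the 10 members in WT was 0.10 at 0 h, 0.08 at 1 h and 0.02 at 4 h, beside −0.01, 0.00 and −0.01 over all tested genes. All lit libraries lay above all dark ones for 4 members in WT at 0 h (7.71% of tested genes), 3 at 1 h (4.93%) and none at 4 h (3.84%). In LiTEC cells they did so for 6 members at 0 h (5.97%), 3 at 1 h (4.63%) and 1, Hspa8, at 4 h (5.07%).

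**Figure D4:**
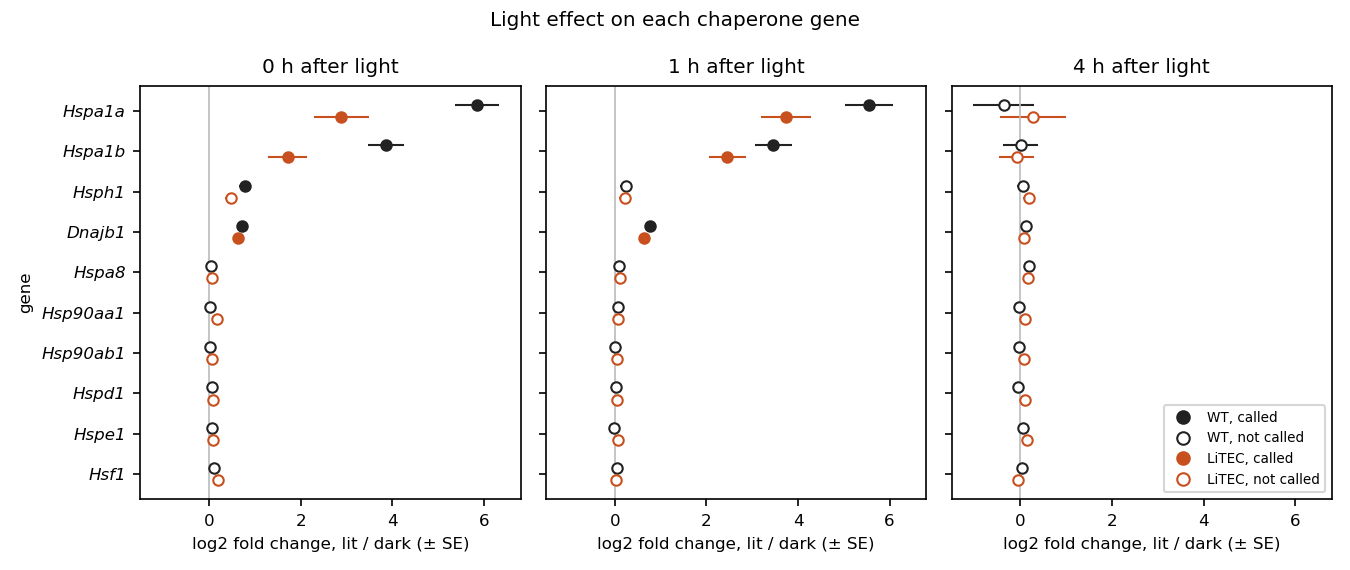
Log2 fold change, lit over dark, of the 10 genes at 0, 1 and 4 h after light in WT (black) and LiTEC cells (orange), with bars for the standard error and filled points for called genes. Hspa1a, Hspa1b, Dnajb1 and Hsph1 stand away from 0 at 0 h, Hsph1 is not called at 1 h, and no gene is called at 4 h.

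The design also asks whether LiTEC changes the response to light. The light effect at 0 h in LiTEC cells minus that in WT cells was estimated at −2.96 ± 0.96 on the log2 scale for Hspa1a (95% interval −4.90 to −1.02) and −2.14 ± 0.59 for Hspa1b (−3.33 to −0.95). The SE and intervals of these differences were derived from the F statistic and are approximate. Adjusted over all tested genes these differences were not called (unadjusted p = 0.00391 and 0.000895, adjusted p = 0.68 and 0.663), in a comparison that called 0.022% of genes. The call of Hspa1b depended on the libraries fitted: with the 0 h groups alone the difference was −2.15 and was called (adjusted p = 0.00208), and with no filter on low counts both genes were. For Dnajb1 the difference at 0 h was −0.10 ± 0.13 (interval −0.36 to 0.16) and for Hsph1 −0.31 ± 0.17 (−0.67 to 0.04). At 1 h it was −1.82 ± 0.95 for Hspa1a and −1.01 ± 0.58 for Hspa1b (adjusted p = 1 for each), and edgeR called none of the tested genes (0%), with 378 at an unadjusted p below 0.05. At 4 h the tested genes again gave 0%, with 657 at an unadjusted p below 0.05, and the difference was 0.63 ± 0.98 for Hspa1a and −0.09 ± 0.54 for Hspa1b (0.37 and 0.03 without the library rich in Gm26917).

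Set directly beside lit WT cells, lit LiTEC cells at 0 h held less inducible Hsp70 mRNA, by −3.20 ± 0.38 for Hspa1a (adjusted p = 1.07e-07) and −2.31 ± 0.36 for Hspa1b (adjusted p = 8.9e-06). Every LiTEC library was below every WT library for both genes, the nearest being 6.71 and 28.3 CPM for Hspa1a and 27.4 and 74.2 CPM for Hspa1b. At 1 h the differences were −1.47 ± 0.35 (adjusted p = 0.00209) and −1.04 ± 0.34 (adjusted p = 0.0231), with overlapping libraries. Without lit WT replicate 3 both of these calls were lost, leaving 2 of 4 called members, and that of Hspa1b was also lost without lit LiTEC replicate 1 or 2. The 1 h call of Hspa1b was lost with DESeq2 (adjusted p = 0.0688) and with no batch term (adjusted p = 0.252) too. In batch 2 alone neither 1 h call was kept (adjusted p = 0.105 for Hspa1a and 0.055 for Hspa1b). In the dark, over 9 libraries of each genotype, the differences were −0.17 ± 0.46 for Hspa1a and −0.11 ± 0.26 for Hspa1b, not called (−0.08 and −0.14 without the library rich in Gm26917).

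The genotypes also differed in the constitutive members without light. In a comparison that called 47.6% of all tested genes, 6 of 10 members were called. Hspa8 was lower in dark LiTEC cells (log2 difference −0.37 ± 0.06, adjusted p = 1.38e-06), with 1183 to 1511 CPM at 0 and 1 h against 1695 to 2094 CPM in WT. At 4 h the libraries overlapped, with 1175 to 1402 CPM in LiTEC cells and 1647, 1643 and 1211 CPM in WT, the last being the library rich in Gm26917. Also lower were Hsp90aa1 (−0.24 ± 0.03, adjusted p = 1.27e-07) and Hsf1 (−0.24 ± 0.05, adjusted p = 7.61e-05). Smaller differences were called for Hspd1 (−0.09 ± 0.03) and Hsp90ab1 (−0.07 ± 0.02), the latter lost without LiTEC replicate 2 or 3 at 1 h, LiTEC replicate 1 at 4 h or WT replicate 3 at 4 h. Dnajb1 was higher in LiTEC cells (0.19 ± 0.05, adjusted p = 0.0034). Without the library rich in Gm26917 the differences were −0.41 for Hspa8, −0.22 for Hsp90aa1, −0.21 for Hsf1, −0.08 for Hspd1 and 0.19 for Dnajb1, all still called. That of Hsp90ab1 was −0.04 (adjusted p = 0.0993). In batch 2 alone the calls of Dnajb1 (0.12, adjusted p = 0.189) and Hspd1 (−0.092, adjusted p = 0.0899) were lost. A share of 6 in 10 is near that of all genes.

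In lit cells the Hspa8 difference was −0.48 ± 0.10 at 0 h (adjusted p = 0.000414) and −0.41 ± 0.10 at 1 h (adjusted p = 0.00229). At 4 h it was −0.21 ± 0.10 and not called (adjusted p = 0.135). Hsf1 was lower in LiTEC cells at 1 h (−0.33 ± 0.08, adjusted p = 0.00313) and 4 h (−0.27 ± 0.08, adjusted p = 0.0162), and Dnajb1 was higher at 4 h (0.29 ± 0.09, adjusted p = 0.0188). This gave 3 called members at 0 h (23.8% of tested genes), 4 at 1 h (21.9%) and 2 at 4 h (20%). At 0 h Hsph1 and Hsf1 were also called, both lower, without lit WT replicate 2, which gave 5 members, and Hsp90aa1 without lit LiTEC replicate 1. At 4 h Dnajb1 lost its call without lit LiTEC replicate 1 or lit WT replicate 2 or 3, and Hsf1 without lit LiTEC replicate 2 or lit WT replicate 1 or 3. Hsp90aa1 was called lower there without lit LiTEC replicate 2 or lit WT replicate 3. For Hspa8, 28.9% of the windows of 100 bases occur in the pseudogene Gm15459, for Hsp90aa1 39.6% occur in Gm12346 and for Hspd1 25.8% occur in Hspd1-ps3, so the counts of these 3 genes are less certain.

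Among dark cultures, no member was called between 0 and 1 h in WT (0.0605% of tested genes called) or LiTEC cells (0.264%). From 0 to 4 h in WT, 3 were called lower (8.31% of tested genes called in either direction). Hspa8 fell from 2014, 1897 and 2094 CPM to 1647, 1643 and 1211 CPM (−0.42 ± 0.10, adjusted p = 0.00685), the lowest value being that of the library rich in Gm26917. Hspe1 fell by 0.23 ± 0.06 (adjusted p = 0.0153) and Hspd1 by 0.17 ± 0.05 (adjusted p = 0.0367). Without that library Hspa8 (−0.29, adjusted p = 0.0788) and Hspe1 (−0.18, adjusted p = 0.102) lost their calls, leaving Hspd1, whose call was in turn lost without 4 h replicate 1 or 2 or 0 h replicate 1 or 3. None was called when the compared groups were fitted alone. In LiTEC cells the differences were −0.11 ± 0.10 for Hspa8, −0.18 ± 0.06 for Hspe1 and −0.17 ± 0.05 for Hspd1, none called (2.18% of tested genes called).

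Ordered by mean level over the 12 groups, both Hsp70 genes had the same first 4: lit WT at 0 h, lit WT at 1 h, lit LiTEC at 1 h and lit LiTEC at 0 h. Neighbours among these overlapped in their libraries. For Hspa1a the lowest of the 4, at 5.15 ± 2.35 CPM, did not overlap the next group, dark WT at 4 h, at 1.45 ± 0.372 CPM. Dnajb1 was led by lit WT (94.2 ± 17.8 CPM) and lit LiTEC cells at 0 h (92.8 ± 5.07 CPM), whose libraries overlapped. Hsph1 had the same 2 groups on top, at 340 ± 43.1 and 280 ± 32 CPM, and a gap below them. For Hspa8, Hsp90aa1 and Hsf1 all 6 WT groups came before all 6 LiTEC groups, with overlapping neighbours throughout.

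The wider chaperone network was read from 72 genes in 7 lists, of which 69 were tested. These lists leave out the 10 members. They were chosen with earlier results of these data known, so shares of called genes in them are descriptions only. Over both genotypes at 0 h, 11 of the 69 were called higher and none lower, where 2.76% of all tested genes were called higher. The median of the 69 was 0.03 on the log2 scale. Among 14 Hsp90 genes and cochaperones 2 rose: Ahsa2, a relative of the Hsp90 ATPase activator Ahsa1 (0.43 ± 0.05, adjusted p = 4.77e-07), and Chordc1 (0.21 ± 0.05). Of 14 Hsp70 cochaperones 3 rose: the Hsp40 genes Dnajb2 (0.44 ± 0.09) and Dnaja1 (0.24 ± 0.06), and St13 (0.12 ± 0.04), whose product Hip binds Hsp70.

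Of 7 tested heat shock factors and HSF1 regulators, Hsf2, which encodes a partner of HSF1 (0.26 ± 0.04, adjusted p = 3.26e-05), and the deacetylase gene Sirt1 (0.19 ± 0.05) rose. Among 12 other heat-induced genes 4 rose: Zfand2a, a proteasome-associated stress gene (0.49 ± 0.07, adjusted p = 3.11e-05), the inositol transporter gene Slc5a3 (0.46 ± 0.07), Dedd2 (0.41 ± 0.09) and Jmjd6 (0.30 ± 0.05). None of 9 Hsp70 and Hsp110 genes, 5 small heat shock protein genes or 8 subunit genes of the TRiC chaperonin was called at 0 h.

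Within a genotype, the network genes called at 0 h included Ahsa2, Hsf2, Zfand2a and Slc5a3 in WT, and there were 6 in LiTEC cells (Ahsa2, Hsf2, Zfand2a, Slc5a3, Dedd2 and Jmjd6), where 0.401% of all tested genes were called higher. At 1 h 1 gene was called in WT, Dedd2 (0.53 ± 0.12, adjusted p = 0.0493; 0.176% of tested genes called higher), and 1 in LiTEC cells, Hspa5, the Hsp70 of the endoplasmic reticulum (0.38 ± 0.08, adjusted p = 0.0261; 0.0824% called higher). With both genotypes averaged at 1 h these were Hspa5, Zfand2a and Dedd2. No network gene was called at 4 h or lower at any time. Of the 63 network genes with a RefSeq window, 2 held a 3-unit run, Dnajb6 and Chordc1, and 17 a 2-unit run. These are counted per gene over all its windows, and single windows held such runs in 0.603% and 15.1% of cases.

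Genes were ranked by how closely their means over the 12 groups, on log2(CPM + 1), followed those of Hspa1a or Dnajb1. These correlations are descriptions across 12 means that share libraries, scaling and batches. Hspa1b was closest to Hspa1a (Pearson r = 0.948 over 12 groups), followed by Llph (r = 0.902), Mfsd11 (0.90), the interferon signalling gene Irf9 (0.896), the kinetochore gene Mis12 (0.889), Mars2 (0.878) and Polq (0.862). Their range was narrow beside that of Hspa1a: Mis12 went from 37.7 to 60.0 CPM between its lowest and highest group mean, and Hspa1a from 0.573 to 49.5 CPM. Closest to Dnajb1 were Snai1, a transcriptional repressor gene (r = 0.952, from 1.42 to 4.50 CPM), Snx16 (0.94), Armc7 (0.901), the splicing kinase gene Clk4 (0.894), Zfp949 (0.88) and Zfand2a (0.874). Hspa1b was at r = 0.822 to Dnajb1 and Hsph1 at 0.687, and Hspa8 was at 0.047.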

How the data were processed

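Poly(A) RNA of 36 mESC libraries was measured. The authors deposited whole-number counts per gene. The submitters' processing notes name FastQC, featureCounts and mm10 (GRCm38). The aligner, strand handling, treatment of multi-mapped reads and versions were not given in the sources used here. Libraries were made with a stranded mRNA kit, per the labels' protocols.

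All 36 libraries were fitted together with edgeR 4.0.16 (limma 3.58.1, R 4.3.3): a mean for each of 12 groups plus a batch term (23 residual degrees of freedom), TMM scaling, filterByExpr with minimum count 10 (18193 genes), and quasi-likelihood F tests. Within each of 24 comparisons Benjamini-Hochberg adjustment covered every tested gene, and called means an adjusted p below 0.05. CPM use TMM-scaled library sizes, and RPKM divide them by merged exon length (GENCODE M21, which matched 53315 of 54842 identifiers). Intervals are 95%. Named genes are the 10 members, the called network genes (1 result is not reported here) and the 6 non-members closest in pattern to Hspa1a and Dnajb1. The members and lists were chosen with earlier results of these data known. The code was tested on simulated data. DESeq2 1.42.0 was among the alternatives tried.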

Additional observations from a re-analysis of the deposited data

Results flagged for a closer look

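For 4 genes a test of the difference itself, with all libraries fitted, called a change of the light effect in WT cells from 0 to 4 h. The log2 light effect at 4 h minus that at 0 h was −6.21 for Hspa1a, −3.85 for Hspa1b, −0.72 for Hsph1 and −0.61 for Dnajb1, in a comparison that called 0.726% of tested genes. The WT calls of Hsph1 and Dnajb1 were lost without a batch term (adjusted p = 0.114 and 0.115) and with the compared groups alone. Both were also lost in batch 2 alone, as was that of Hspa1a (adjusted p = 0.102). In LiTEC cells the same differences were −2.62, −1.80, −0.29 and −0.55, none called (0.033% of tested genes called). DESeq2 did call the LiTEC difference of Dnajb1 (adjusted p = 0.0376). Single far values within a group were not tested for, since each group held 3 libraries.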

How the results depend on the processing

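Counts of called members below are given as reported and then under the alternative. With no filter on low counts the LiTEC minus WT difference in light effect went from 0 to 2 at 0 h and 0 to 1 at 1 h, the 4 h light effect from 0 to 1 in WT and in both genotypes averaged, LiTEC minus WT in lit cells from 3 to 5 at 0 h and 2 to 4 at 4 h, the dark change from 0 to 4 h from 3 to 5 in WT and 0 to 3 in LiTEC cells, the change of the light effect from 0 to 1 h from 0 to 1 in each genotype, and that from 0 to 4 h in LiTEC cells from 0 to 3. In batch 2 alone the LiTEC light effect went from 3 to 0 at 0 h and 3 to 1 at 1 h, LiTEC minus WT in lit cells from 4 to 1 at 1 h and 2 to 0 at 4 h, the WT dark change from 3 to 0 and the WT light effect change from 4 to 1. It has fewer samples. With the compared groups alone the values were 0 to 1 for the difference in light effect at 0 h, 3 to 0 (WT) and 0 to 1 (LiTEC) for the dark change to 4 h, and 4 to 2 (WT) and 0 to 1 (LiTEC) for the light effect change to 4 h. Without a batch term, LiTEC minus WT in lit cells at 4 h went from 2 to 0, the WT dark change from 3 to 1 and the WT light effect change from 4 to 2. DESeq2 gave 2 for the LiTEC dark change and 1 for the LiTEC light effect change to 4 h, each 0 as reported. Where no cause is stated, the cause was not tested.

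A replicate block in place of batch gave 5 in place of 3 for LiTEC minus WT in lit cells at 0 h and for the WT dark change, 3 in place of 0 for the LiTEC dark change, and 1 in place of 0 for the WT light effect change to 1 h and the LiTEC light effect change to 4 h. It also called Hsph1 in LiTEC cells at 0 h and with both genotypes averaged at 1 h, Hsf1 with both genotypes averaged at 0 h (adjusted p = 0.0495) and Hsp90aa1 for LiTEC minus WT in lit cells at 1 and 4 h. Deviations from the group means correlated above 0.1 in 66 of 66 pairs of replicate 1 (mean 0.664) and 66 of 66 of replicate 2 (mean 0.578). They did so in 65 of 66 of replicate 3 (mean 0.49, lowest 0.067). Between different numbers the mean was −0.279, a value that centring on the group means lowers. Between replicates 2 and 3, both of batch 2, it was 0.022. Of 36 libraries, 36 deviated most like libraries of their own number. Batch was not removed, so for replicate 1 batch and pairing cannot be told apart. For replicates 2 and 3, which share a batch, the values point to pairing by number. The labels do not state it and 1 pair was under the 0.1 asked of every pair, so the block was kept as an alternative. The main fit therefore ignores such pairing, and some members it did not call were called with the block.

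Leaving out 1 library at a time gave 1 to 3 called members for the LiTEC light effect at 0 h, 3 to 5, 2 to 4 and 1 to 2 for LiTEC minus WT in lit cells at 0, 1 and 4 h, 1 to 3 for the WT dark change and 2 to 4 for the WT light effect change to 4 h. Of 1350 log2 fold changes of single members, lit over dark, under these alternatives, no called value changed sign, 1314 kept their side of the threshold, 10 gained a call, 19 lost one and 7 uncalled values changed sign by more than their standard error. Depth limits Hspa1a most, with 5 to 26 counts in each dark library.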
